A study of Mus musculus with 16 samples.

Results

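The genes described here are 36 components of the autophagy and mitophagy machinery, chosen by symbol from the 18346 genes of the deposited count table. All 36 were in the table and all passed the filter on low counts, so none is missing from the comparisons. They were measured by RNA-seq of whole-heart tissue from 16 mice, 4 in each of 4 groups. Young WT and young KO mice were 8 weeks old, aged WT and aged KO mice 25 months old; WT stands for healthy C57BL/6J wild type and KO for mice lacking Armh4 in the whole body, and no group was given an agent. The labels do not say how the knockout was made or which sex the animals had, and they describe the hearts of a group as independent biological replicates.

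Autophagy encloses cytoplasm in a double membrane, the autophagosome, and delivers it to the lysosome for breakdown. It is started by the ULK1 kinase complex and a class III phosphatidylinositol 3-kinase complex, the membrane grows with lipid brought by ATG9 and ATG2, and small ubiquitin-like proteins of the ATG8 family (the LC3 and GABARAP proteins) are coupled to the membrane lipid by enzymes that resemble those of the ubiquitin system. Mitophagy is the removal of mitochondria by this route, through receptors that bind ATG8 proteins, and cardiac muscle, which is rich in mitochondria, relies on it. Much of the control of these proteins is by phosphorylation, cleavage and lipid coupling, which RNA levels do not show.

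The 3 genes that rose with age in WT hearts were Bnip3 (Entrez 12176), Gabarapl1 (57436) and Optn (71648), and the 250 bases before their RefSeq start sites are printed to show where a known autophagy-linked motif lies in one and not in the others. The sequences run 5′ to 3′ on the gene's strand in build GRCm38.p6, not the build named for the deposited files. Bnip3 is at chr7:138909507-138909756 on the minus strand, Gabarapl1 at chr6:129532942-129533191 on the plus strand and Optn at chr2:5064118-5064367 on the minus strand. Capitals mark the E-box CACGTG, the core sequence bound by the lysosomal and autophagy regulator TFEB and by other factors of its class. Its letters ACGTG are also the core of the hypoxia response element.
Bnip3: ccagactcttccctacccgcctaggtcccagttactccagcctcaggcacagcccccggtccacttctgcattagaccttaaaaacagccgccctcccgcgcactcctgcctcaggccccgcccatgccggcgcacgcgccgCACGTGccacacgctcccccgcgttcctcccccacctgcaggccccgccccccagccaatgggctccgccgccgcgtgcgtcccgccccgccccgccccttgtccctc
Gabarapl1: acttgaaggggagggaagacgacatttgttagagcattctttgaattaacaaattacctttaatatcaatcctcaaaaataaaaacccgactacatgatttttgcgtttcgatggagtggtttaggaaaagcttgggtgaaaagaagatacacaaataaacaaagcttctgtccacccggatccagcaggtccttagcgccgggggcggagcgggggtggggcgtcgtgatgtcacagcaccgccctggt
Optn: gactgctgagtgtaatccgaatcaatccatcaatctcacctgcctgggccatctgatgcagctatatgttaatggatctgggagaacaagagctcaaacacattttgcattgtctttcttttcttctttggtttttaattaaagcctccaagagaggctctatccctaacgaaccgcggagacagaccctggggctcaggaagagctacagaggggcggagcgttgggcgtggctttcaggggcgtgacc

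The Bnip3 sequence holds the E-box once, beginning at position -108 from the start site, and those of Gabarapl1 and Optn do not hold these letters. Of the 36 genes, 29 matched the RefSeq promoter table, with 32 promoters of 300 bases (250 before and 50 after the start). The E-box, which reads the same on both strands, was in 5 of these 32 promoters (those of Atg3, Atg5, Atg7, Atg14 and Bnip3) and in 7.15% of all 32851 promoters. The longer TCACGTGA contains the E-box and is the core of the CLEAR element of lysosomal genes. It was in the Atg3 promoter only and in 0.974% of all promoters. The shorter ACGTG, on either strand, was in 14 of the 32 promoters, that of Bnip3 among them, and in 19.6% of all. The exact letters GTAAACA, a form of the forkhead element, were searched on both strands. They were in 0 of the 32 promoters and in 3.65% of all. Other forms of this element, and of the hypoxia response element, were not searched, so their absence from a promoter is not shown. The Bnip3 promoter was 71.7% G or C, that of Gabarapl1 46.3% and that of Optn 52.7%, against a median of 52.7% over all promoters. These matches describe the letters and do not show binding.

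Total counts ranged from 11456503 to 13298660 per library, and 13373 genes were tested. Armh4, the targeted gene, was at 15.5 ± 2.49 CPM (counts scaled to library size) in young WT hearts, 18.5 ± 1.94 in aged WT, 0.374 ± 0.198 in young KO and 1.14 ± 0.368 in aged KO hearts (mean ± SD, n = 4 here and below), which matched the genotype labels in all 16 libraries. The 10 cardiomyocyte markers checked summed to between 85844.5 and 116113 CPM in every heart, and 7 of 9 skeletal muscle markers were under 1 CPM in all hearts.

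Between-gene levels were read from the deposited FPKM values, which are scaled by gene length. Map1lc3a, an LC3 protein, had the highest mean, 502 FPKM over the 16 hearts, above 98.8% of all genes in the table. Pink1, the kinase that marks damaged mitochondria for removal, followed at 429 FPKM and was below Map1lc3a in 15 of the 16 hearts. Gabarap came next at 213 FPKM, then Bnip3, a receptor in the outer mitochondrial membrane, at 197 FPKM. The order of the group means of these last 2 differed with age, and Gabarap exceeded Bnip3 in 11 hearts only. In young hearts the mean of Gabarap was above that of Bnip3 (189.9 and 151.1 FPKM in WT, 215.1 and 123.2 FPKM in KO). In aged hearts it was below (233.3 and 289.2 FPKM in WT, 214.7 and 224.5 FPKM in KO). The ranges of Gabarap and Bnip3 overlapped in aged WT hearts (204.5 to 264.5 and 209.4 to 377.1 FPKM). They also overlapped in aged KO hearts (194.4 to 231.6 and 191.9 to 246 FPKM), where the order is within the spread. Gabarapl2 (138 FPKM), Map1lc3b (128 FPKM), Gabarapl1 (81.8 FPKM) and Optn (67.2 FPKM) followed, so that the 5 ATG8 genes stood among the 7 most abundant of the 36. Gabarapl2 exceeded Map1lc3b in 13 hearts, and Map1lc3b exceeded Gabarapl1 in all 16.

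**Figure D1:**
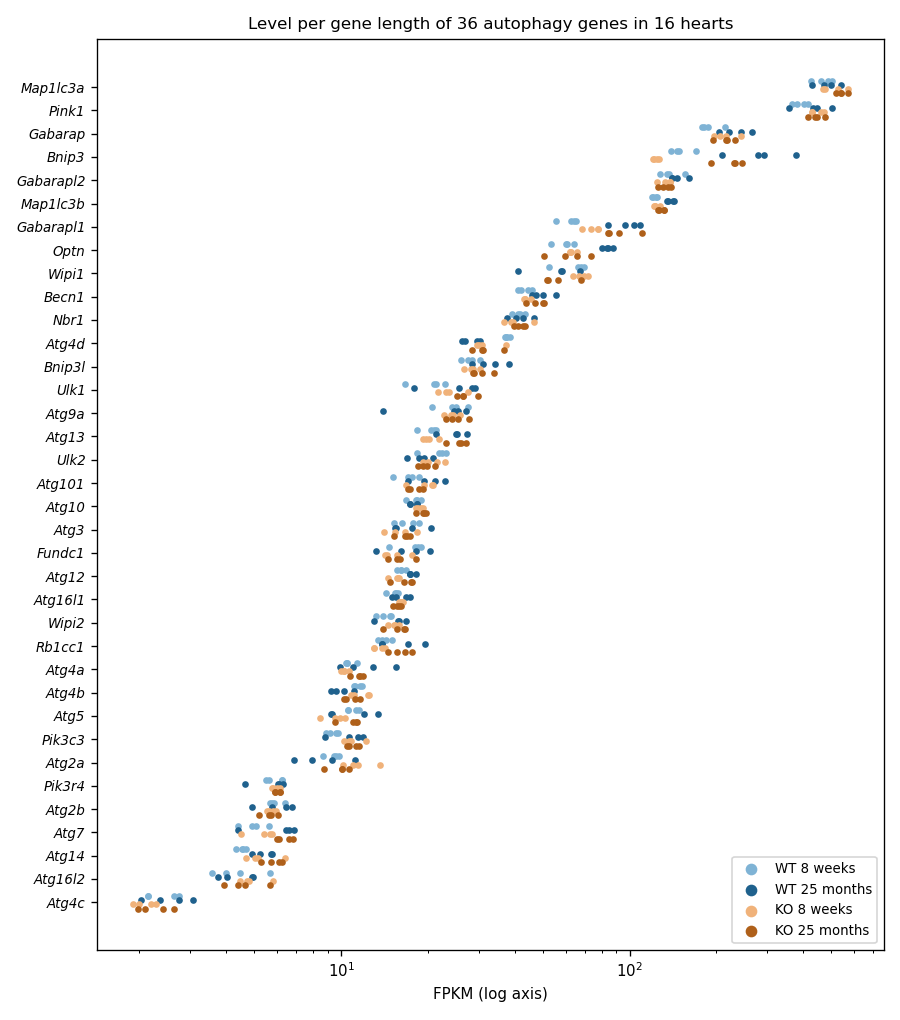
FPKM of each of the 36 genes (log axis) in each heart, 1 point per heart, coloured by group and ordered by the mean over 16 hearts. The genes span from 2.33 FPKM (Atg4c) to 502 FPKM (Map1lc3a), and neighbours in the middle of the order overlap.

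Over the 16 hearts, each gene of initiation, membrane growth and conjugation had a lower mean level per length than any ATG8 gene. Wipi1, which binds the lipid made by the class III kinase, was at 61.3 FPKM and Becn1, a subunit of that kinase complex, at 46.2 FPKM. In young WT hearts alone the mean of Wipi1, 64.1 FPKM, was above that of Gabarapl1, 61.8 FPKM. Ulk1, the initiating kinase, was at 24.2 FPKM, and Atg9a, a membrane protein that moves lipid between the leaflets, at 24.1 FPKM. Ulk1 exceeded Atg9a in 9 of 16 hearts, so their order is within the spread. The lowest genes were Atg16l2 (4.61 FPKM), a relative of the conjugation scaffold Atg16l1, and Atg4c (2.33 FPKM), 1 of 4 proteases that trim ATG8 proteins. Atg4c was still above 44.1% of all listed genes and had at least 71 counts in each library.

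Among replicate hearts the 36 genes had a lower median within-group SD of log2 CPM, 0.136, than all tested genes, 0.173. The 36 and all tested genes were not matched for level, on which this SD can depend. Atg10, Atg12 and Map1lc3b were the steadiest, with SDs of 0.0561, 0.0591 and 0.0609. Ulk1 (0.265), Atg9a (0.264) and Wipi1 (0.222) varied most. Aged WT heart 1 was the lowest of its group at 17 of the 36 genes and the highest at 9. Atg9a was at 48.8 CPM in that heart and at 85.3 to 94.7 CPM in the other aged WT hearts. Ulk1 was at 77.4 CPM there, against 119.7 to 138.9 CPM, and Wipi1 at 61.6 CPM, against 86.1 to 105 CPM. Among young KO hearts, animal 27 was the lowest at 17 genes, and among young WT hearts animal 39 was the highest at 22.

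In WT hearts, 3 of the 36 genes rose and 2 fell from 8 weeks to 25 months. The mitophagy receptor gene Bnip3 rose 1.82-fold, the ATG8 gene Gabarapl1 rose 1.51-fold and the receptor gene Optn rose 1.30-fold. The protease genes Atg4d and Atg4b fell, by 1.37-fold and 1.20-fold. These 5 genes are 13.9% of the 36, while 21.9% of all tested genes changed in this comparison at the same threshold (edgeR quasi-likelihood test, Benjamini-Hochberg adjusted p under 0.05), 11.9% upwards and 10% downwards. On the FPKM scale the balance differed: 6 of the 36 rose and 1 fell in each of the 3 FPKM settings, and of all genes called 71.4% rose in log2(FPKM + 1), against 54.2% in the count test. The FPKM fits did not use the scaling factors between libraries that the count test used. Without aged WT heart 1 the counts were also 6 up and 1 down. Atg13 was gained in both, with Gabarap and Map1lc3b on the FPKM scale and with Pik3c3 and Ulk1 without that heart. The median change of the 36 was 0.03 on the log2 scale, with a median of -0.01 over all genes, and the 95% interval of the change lay within 1.5-fold in either direction for 33 of them.

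Bnip3 was at 219.0, 210.2, 233.4 and 260.7 CPM in the 4 young WT hearts (animals 29, 34, 39 and 42) and at 541.6, 421.5, 313.6 and 399.3 CPM in the aged WT hearts (animals 1, 4, 5 and 12). The aged values spread widely, with heart 1 highest and heart 5 lowest, and all 4 were above every young heart. The log2 change was 0.86 ± 0.12 (SE, here and below; adjusted p = 7.03e-05). BNIP3 binds LC3 from the mitochondrial surface, and its gene is a well-known target of the hypoxia-inducible factors.

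Gabarapl1 was at 97.1, 97.4, 89.6 and 97.1 CPM in young WT hearts and at 122.5, 159.0, 156.4 and 139.7 CPM in aged ones, in the same order of animals. The young values were tight and the groups were far apart. The log2 change was 0.60 ± 0.10 (adjusted p = 0.000264). The other 4 ATG8 genes did not pass in the count test: Gabarap had a log2 change of 0.23 ± 0.10 (adjusted p = 0.0966), from 166 ± 10.1 to 194.2 ± 21.3 CPM, and Map1lc3b one of 0.11 ± 0.07 (adjusted p = 0.235), from 273.9 ± 7.64 to 296.1 ± 14.2 CPM. Both passed as higher in the 3 FPKM settings (adjusted p = 0.0307 for Gabarap and 0.0164 for Map1lc3b in log2(FPKM + 1)), and Gabarap also passed without aged WT heart 12 (0.0367). Map1lc3a was at 373.4 ± 30.5 and 367.7 ± 35.9 CPM, and Gabarapl2 at 101.2 ± 5.53 and 101.6 ± 5.77 CPM.

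Optn was at 140.8, 160.8, 141.7 and 148.3 CPM in young WT hearts and at 181.6, 198.0, 207.7 and 183.9 CPM in aged ones. Optineurin links ubiquitin-tagged mitochondria and other cargo to LC3. The groups did not overlap, and the log2 change was 0.38 ± 0.09 (adjusted p = 0.00703). Of the other 4 receptor and mitophagy genes none passed. Bnip3l, the closest relative of Bnip3, went from 87.1 ± 3.01 to 97.52 ± 10.4 CPM (log2 0.16 ± 0.08, adjusted p = 0.14). Pink1 was at 844.3 ± 69.2 and 890.2 ± 129 CPM, Fundc1, another mitochondrial membrane receptor, at 42.29 ± 4.57 and 37.63 ± 6.25 CPM, and Nbr1, a ubiquitin-binding cargo receptor, at 185.1 ± 10.3 and 178.6 ± 17.3 CPM.

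**Figure D2:**
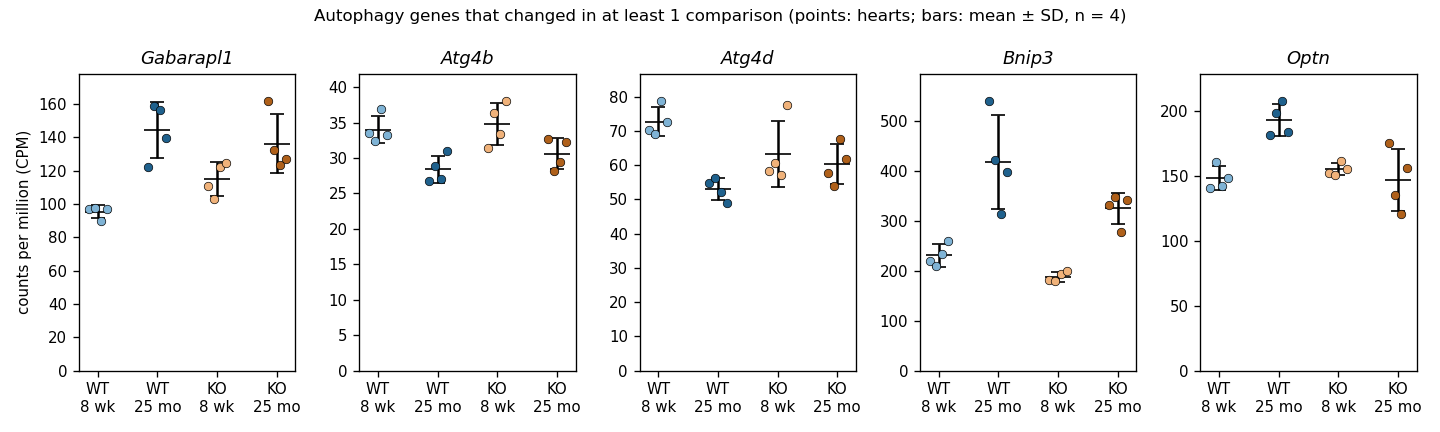
CPM (linear axes from 0) of the 5 genes that passed the test in at least 1 comparison, in every heart of the 4 groups; long bars are means and error bars SDs, n = 4. Bnip3 is higher at 25 months in both genotypes, while Optn is at 181.6 to 207.7 CPM in aged WT hearts and at 120.5 to 175.2 CPM in aged KO hearts.

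The 2 genes that fell code for ATG4 proteases, which expose the end of new ATG8 proteins and also release them from membranes. Atg4d (Entrez 235040) was at 70.3, 69.1, 78.9 and 72.7 CPM in young WT hearts and at 54.8, 56.2, 52.3 and 48.9 CPM in aged ones, with no overlap (log2 -0.46 ± 0.10, adjusted p = 0.00204). Its counts were fractional in all 16 libraries, as were those of Becn1, Pik3c3 and Atg7, so reads shared with another gene may enter these values. Atg4b (Entrez 66615) was at 33.5, 32.4, 36.9 and 33.3 CPM in young WT hearts and at 26.8, 28.8, 27.04 and 30.95 CPM in aged ones. Its change was small (log2 -0.26 ± 0.08, adjusted p = 0.0315) and its call was lost without any 1 of 7 of the 8 WT hearts, with adjusted p-values of 0.0538 to 0.106, and held only without aged heart 12 (0.0217). Atg4a, Atg4c and the lipid-coupling enzyme Atg3 did not pass, with log2 changes of 0.14, 0.02 and -0.05.

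None of the 20 genes of the earlier steps passed in WT ageing in the count test. Of the 5 genes of the ULK1 complex, Ulk2 (log2 -0.25 ± 0.09, adjusted p = 0.053) and Atg13 (0.22 ± 0.09, adjusted p = 0.0861) were nearest to the threshold, in opposite directions. Ulk2 passed as lower in DESeq2 (adjusted p = 0.0358) and without young WT heart 29 (0.0111) or aged WT heart 12 (0.041), and Atg13 passed as higher in the 3 FPKM settings (0.0202 to 0.0216). Without aged WT heart 1, Atg13 (0.0107), Pik3c3 (0.0175) and Ulk1 (0.0437) passed as higher, and without aged WT heart 5 Wipi1 passed as lower (0.0495). The 4 genes of the class III kinase complex had log2 changes of -0.10 to 0.19. Becn1 was at 74.2 to 76.6 CPM in young and at 77.3 to 92.8 CPM in aged WT hearts, so its groups did not overlap (log2 0.14 ± 0.07, adjusted p = 0.143). The 5 genes of membrane supply and lipid binding ran from -0.26 (Wipi1) to 0.05 (Wipi2), and the 6 genes of ATG12 conjugation from -0.12 (Atg16l2) to 0.16 (Atg7). In all, the young and aged WT hearts did not overlap at 7 of the 36 genes, against 21.7% of all tested genes.

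Markers of other cell types moved in the same comparison. All 12 macrophage markers checked rose, with their summed level at 267 to 378 CPM in young and 803 to 1213 CPM in aged WT hearts, and none of the 12 was near 0. Of 9 erythroid markers 8 rose (summed level 758 to 896 CPM, then 1228 to 2409 CPM), as did the 4 tested of 5 neutrophil markers (1.81 to 2.49 CPM, then 22.2 to 35.7 CPM). Of 4 tested T cell markers 3 rose (2.33 to 2.66 CPM, then 3.84 to 12.1 CPM for 6 listed genes), and Fabp4, the 1 tested adipocyte marker, which endothelial cells also express, rose too. Of 8 endothelial markers 2 fell, and of 8 fibroblast markers 1 rose and 2 fell. The 5 tested atrial markers had negative estimates (median log2 -1.52) and 0 passed. The atrial sum was 275.03 to 486.5 CPM in young and 159.8 to 508.8 CPM in aged WT hearts. Aged WT heart 1 had the highest fibroblast, macrophage and atrial sums of its group, at 2334, 1213 and 508.8 CPM. In the other aged WT hearts these sums were 996 to 1316, 803 to 853 and 159.8 to 201.3 CPM. Of 10 cardiomyocyte markers 2 fell, and their sum was 100524 to 111176 CPM in young and 85844.5 to 98933 CPM in aged WT hearts. The part of these shifts in the changes of Bnip3, Gabarapl1, Optn, Atg4b and Atg4d was not tested. In bulk tissue, fewer cells of a type and less RNA per cell cannot be told apart.

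In KO hearts, Bnip3 was the only 1 of the 36 genes to change with age, and it rose 1.73-fold. It is 2.78% of the 36, while 7.67% of all tested genes changed, 5.03% upwards and 2.64% downwards. Bnip3 was at 181.4, 179.1, 192.9 and 200.1 CPM in young KO hearts (animals 27, 31, 38 and 53) and at 331.4, 348.4, 278.6 and 342.2 CPM in aged ones (the samples titled KO_Aged-114, KO_Aged-115, KO_Aged-122 and KO_Aged-125). The young values were tight and the 4 aged hearts were all above them (log2 0.79 ± 0.12, adjusted p = 0.000633). The ageing changes of Bnip3 in the 2 genotypes (KO minus WT) differed by -0.07 ± 0.17 (95% interval -0.44 to 0.29).

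The other genes that changed in WT ageing did not pass in KO hearts. Gabarapl1 was at 110.6, 103.0, 122.2 and 124.3 CPM in young KO hearts and at 162.0, 132.1, 123.1 and 127.0 CPM in aged ones, which overlap (log2 0.24 ± 0.10, adjusted p = 0.151). Atg4b was at 31.4, 36.4, 33.3 and 38.1 CPM in young KO hearts and at 32.7, 28.2, 29.4 and 32.3 CPM in aged ones, which overlap (adjusted p = 0.199). Atg4d was at 58.2, 60.6, 57.0 and 77.6 CPM in young KO hearts, where animal 53 stood above the rest, and at 57.7, 54.0, 67.8 and 61.9 CPM in aged ones. Optn was at 152.1, 150.6, 160.9 and 155.4 CPM in young KO hearts and at 175.2, 135.3, 120.5 and 155.6 CPM in aged ones, a wide spread around the young level (log2 -0.08 ± 0.09, adjusted p = 0.689).

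Young and aged KO hearts did not overlap at 3 of the 36 genes, against 15.7% of all tested genes; these were Bnip3, Atg13 and Atg16l1. Atg13, which anchors the ULK1 complex, was at 67.6, 68.7, 77.9 and 70.8 CPM in young and at 87.9, 83.7, 91.9 and 78.9 CPM in aged KO hearts (log2 0.27 ± 0.09, adjusted p = 0.0777). It passed when only the KO groups were fitted and on the FPKM scale, which moved the count of changed genes from 1 to 3 and to 2. Of all genes called in KO ageing 65.6% rose in the count test and 80.8% in log2(FPKM + 1). Wipi1 passed in the first of these only, from 107.9 ± 7.17 to 86.12 ± 11.4 CPM. The median change of the 36 genes in KO ageing was -0.04, with -0.01 over all genes, and 34 intervals lay within 1.5-fold. Of the macrophage markers 10 of 12 rose in KO hearts (summed level 310 to 394 CPM, then 594 to 679 CPM), 0 of 9 erythroid markers did (834 to 1289 CPM, then 1077 to 2043 CPM), 2 of 4 tested neutrophil markers rose, 2 of 8 endothelial markers and 1 of 10 cardiomyocyte markers fell, and their part in the Bnip3 change was not tested.

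**Figure D3:**
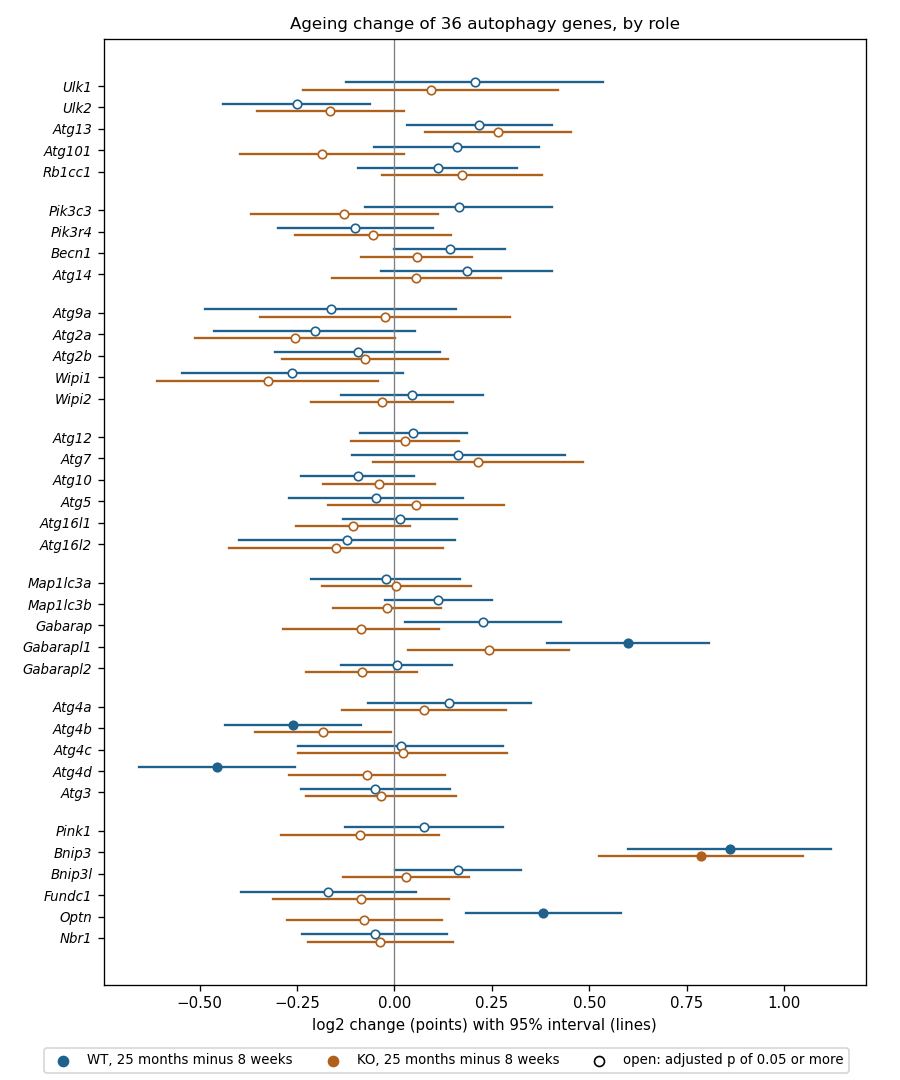
Log2 change from 8 weeks to 25 months (points) with 95% intervals (lines) for the 36 genes grouped by role, in WT and KO hearts; filled points have an adjusted p under 0.05. The 5 filled WT points are Gabarapl1, Atg4b, Atg4d, Bnip3 and Optn, and the 1 filled KO point is Bnip3.

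In aged hearts, Optn was 1.31-fold lower in KO than in WT mice, and it was the only 1 of the 36 genes to pass. It is 2.78% of the 36, while 1.11% of all tested genes changed, 0.172% being higher and 0.942% lower in KO hearts. Aged WT hearts were at 181.6 to 207.7 CPM and aged KO hearts at 120.5 to 175.2 CPM, with no overlap (log2 -0.39 ± 0.09, 95% interval -0.59 to -0.20, adjusted p = 0.0494). The adjusted p was close to the threshold, and the call was lost without aged WT heart 4 (0.0879) or 5 (0.117), without KO_Aged-115 (0.172), KO_Aged-122 (0.171) or KO_Aged-125 (0.0722), when only the aged groups were fitted (0.265), and with robust dispersion estimates (0.0537). The aged WT hearts are also 1 side of WT ageing, so the rise of Optn there and its lower level in aged KO hearts share 4 libraries.

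Bnip3 was lower in aged KO than in aged WT hearts by the point estimate (log2 -0.37 ± 0.12), but its groups overlapped at 313.6 CPM in WT heart 5, and the adjusted p was 0.207. Gabarapl2 was at 97.4 to 110 CPM in aged WT and at 86.6 to 96.2 CPM in aged KO hearts, without overlap, and did not pass (log2 -0.14 ± 0.07, adjusted p = 0.455). Optn and Gabarapl2 were the 2 genes whose groups did not overlap, against 5.05% of all tested genes. The genes of the first 4 roles, 20 in all, had log2 differences of -0.16 (Atg101) to 0.14 (Atg7). For 34 of the 36 genes the interval of the difference lay within 1.5-fold. In the same comparison the 12 macrophage markers had negative estimates (median log2 -0.53; summed level 803 to 1213 CPM in WT, 594 to 679 CPM in KO), 7 without overlap, and 1 passed. Of 4 tested neutrophil markers 3 were lower (22.2 to 35.7 CPM in WT, 4.82 to 15.5 CPM in KO), as was 1 of 4 T cell markers, and the 9 erythroid markers had negative estimates with 0 passing. The 5 tested atrial markers had positive estimates (median log2 3.79), 4 with an unadjusted p under 0.05 and 0 passing. The atrial sum was 159.8 to 508.8 CPM in WT and 182.4 to 662.3 CPM in KO hearts, and the atrial light chain gene Myl4 was at 1.53 to 2.96 CPM in WT and at 66.9, 48.5, 7.32 and 2.34 CPM in KO hearts. KO_Aged-114 was the highest of its group for Myl4 and for Optn. Without it the Optn difference was -0.49 (adjusted p = 0.0136), and KO_Aged-115, with Myl4 at 48.5 CPM, remained in the group. The part of the atrial and the other markers in the Optn difference was not tested.

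In young hearts, 0 of the 36 genes differed between KO and WT in edgeR's test, and 0 in DESeq2, while 0.322% of all tested genes did in edgeR, 0.0598% being higher and 0.262% lower in KO hearts. At an unadjusted p under 0.05 there were 4, or 11.1%, against 11.2% of all tested genes. All 36 intervals of the difference lay within 1.5-fold, with bounds from -0.55 to 0.53 on the log2 scale. The 3 genes with the lowest unadjusted p were Gabarapl1, Bnip3 and Atg14, which were also the 3 without overlap between the groups, against 8.48% of all tested genes.

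Gabarapl1 was at 89.6 to 97.4 CPM in young WT and at 103.0 to 124.3 CPM in young KO hearts (log2 0.27 ± 0.10, adjusted p = 0.309). Its mean in young KO hearts, 115.04 ± 10 CPM, lay between those of young WT (95.3 ± 3.78 CPM) and aged WT hearts (144.4 ± 16.9 CPM). Bnip3 was at 210.2 to 260.7 CPM in young WT and at 179.1 to 200.1 CPM in young KO hearts (log2 -0.29 ± 0.12, adjusted p = 0.384). Atg14, the subunit that directs the class III kinase to autophagy, was at 13.7, 15.1, 15.4 and 15.02 CPM in young WT hearts and at 16.1, 16.4, 21.2 and 15.8 CPM in young KO hearts (log2 0.23 ± 0.10, adjusted p = 0.425). The groups of Atg14 were close, and young KO heart 38 stood apart from the rest. That heart also had the highest atrial sum, 718.4 CPM, against 274.4 to 442.1 CPM in the other young KO and 275.03 to 486.5 CPM in young WT hearts, with Myl4 at 73.5 CPM; the part of atrial tissue in the Atg14 value was not tested. Over both young groups the 5 tested atrial markers had positive estimates (median log2 2.12) and 0 passed.

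**Figure D4:**
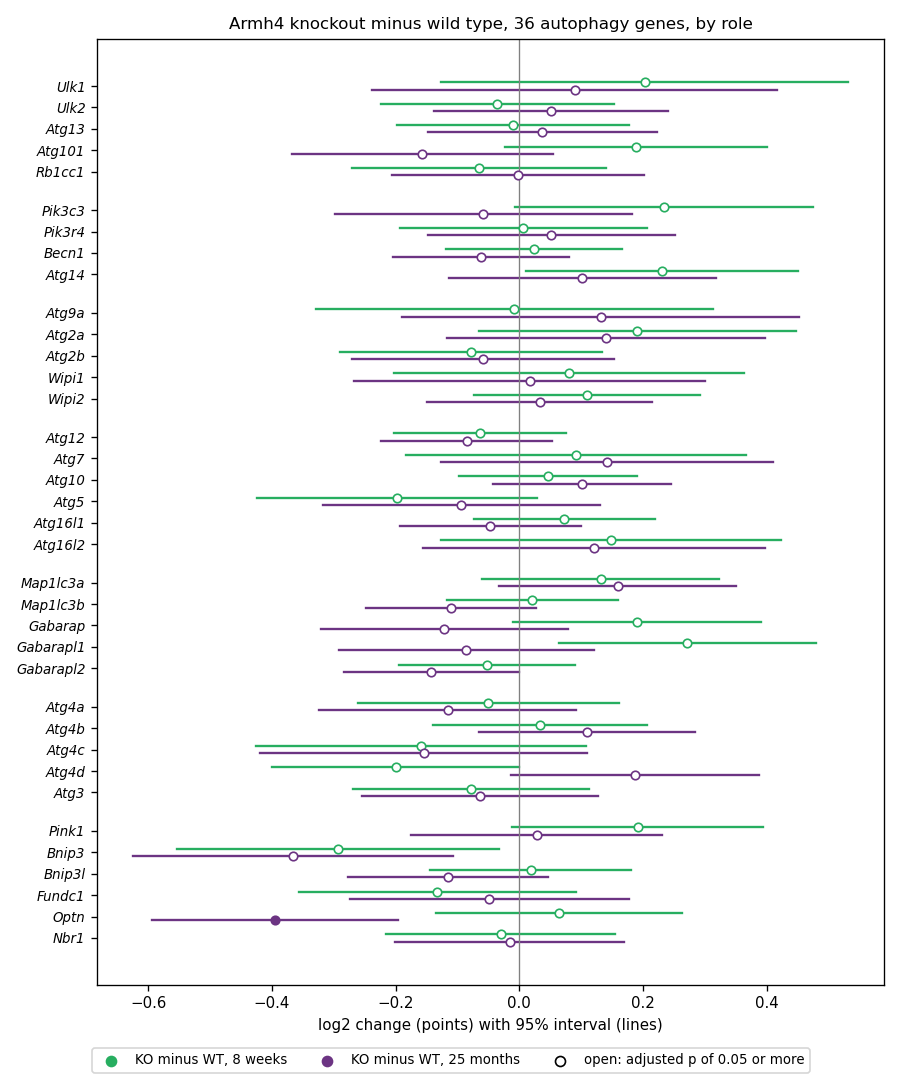
Log2 difference between KO and WT hearts (points) with 95% intervals (lines) for the 36 genes grouped by role, at 8 weeks and at 25 months; filled points have an adjusted p under 0.05. Optn at 25 months is the 1 filled point, at -0.39.

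The difference in ageing change between the genotypes was tested directly as an interaction. None of the 36 genes passed in edgeR, where 0.576% of all genes did (0.135% with a positive and 0.441% with a negative value); 5 had an unadjusted p under 0.05 (13.9%, against 12.4% of all genes), and DESeq2 called 1, Optn. The lowest p was that of Optn, whose ageing change was lower in KO than in WT hearts by -0.46 ± 0.13 on the log2 scale (adjusted p = 0.142). Atg4d followed at 0.39 ± 0.14 (adjusted p = 0.234) and Gabarapl1 at -0.36 ± 0.14 (adjusted p = 0.296). Thus for Gabarapl1, Atg4b, Atg4d and Optn, passing in WT ageing and not in KO ageing was not shown to be a difference between the genotypes by this test. Leaving out KO_Aged-114, which had the highest Optn level of its group, brought Optn under the threshold.

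Around this machinery, 85 of 86 further listed symbols of the pathway were tested (2 of the listed symbols name 1 gene). In WT ageing 11 of them rose and 6 fell, 20% against 21.9% of all genes. The lysosomal genes moved most evenly: 7 of the 19 tested rose (36.8%, against 11.9% of all tested genes) and 0 fell (10% of all). Ctsl, a lysosomal protease, went from 200.5 ± 17.3 to 327.5 ± 36.8 CPM (log2 0.71 ± 0.09, adjusted p = 1.86e-05), and Hexa, a subunit of beta-hexosaminidase, from 60.73 ± 2.17 to 86.1 ± 2.13 CPM (0.50 ± 0.07, adjusted p = 2.84e-05). Cln3, a lysosomal membrane protein, rose by 0.70 ± 0.12 and the protease gene Ctsd by 0.37 ± 0.07. Macrophages, whose markers rose in the same hearts, are rich in lysosomal enzymes, and their part in these changes was not tested.

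Of 9 transcription factors of the pathway, 3 fell (33.3%, against 10% of all tested genes) and 0 rose (11.9% of all) in WT ageing. Tfeb, the activator of lysosomal and autophagy genes through E-box elements, fell from 30.38 ± 1.81 to 22.69 ± 1.03 CPM (log2 -0.42 ± 0.08, adjusted p = 0.000705). Among 24 further receptors and mitophagy enzymes 3 rose and 2 fell (20.8%, against 21.9% of all tested genes). Trim5 rose by 1.1 ± 0.22 (adjusted p = 0.00123), a gene with close copies in the mouse whose reads may be shared. Initiation regulators gave 0 up and 1 down of 17 (5.88%), and factors of membrane growth and fusion 1 up and 0 down of 16 (6.25%).

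In KO ageing 1 of the 85 rose, Ctsd (log2 0.24 ± 0.07, adjusted p = 0.0411), and 0 fell, 1.18% against 7.67% of all tested genes. In aged hearts 1 of the 85 was higher and 1 lower in KO, 2.35% against 1.11% of all. Tfeb was higher in KO (29.17 ± 1.16 CPM) than in WT (22.69 ± 1.03 CPM), by log2 0.36 ± 0.08 (adjusted p = 0.0271). Ctsl was lower, at 246.6 ± 17.4 CPM in KO and 327.5 ± 36.8 CPM in WT (log2 -0.41 ± 0.09, adjusted p = 0.0285). The aged WT hearts are also 1 side of the WT ageing changes of Tfeb and Ctsl. In young hearts 1 of the 85 differed, 1.18% against 0.322% of all. Sqstm1, the cargo receptor p62, was at 542.9 ± 17.2 CPM in KO and 370.2 ± 19.8 CPM in WT hearts (log2 0.55 ± 0.09, adjusted p = 0.0136). Its relative among the 36 genes, Nbr1, was at 181.2 ± 21.9 and 185.1 ± 10.3 CPM in the same hearts (log2 -0.03 ± 0.09, adjusted p = 0.921). In the interaction 0 of the 85 passed in edgeR, against 0.576% of all tested genes. The lowest adjusted p among them, 0.0501 for a lysosomal gene, was just above the threshold. At an unadjusted p under 0.05 there were 10 (11.8%, against 12.4% of all). The calls of these further genes were not checked in the alternatives or without single hearts. Between young KO and WT hearts, the number of all genes called fell from 43 to between 3 and 21 without any 1 heart.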

How the data were processed

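Whole-heart RNA of 16 mice was sequenced. The authors deposited expected counts per gene (9.57% to 10.5% of values per library not whole, tolerance 1e-09) and FPKM values, a unit relative to library size and length of each gene. Per the submitters' processing notes, HISAT, Bowtie2 and GRCm39 were used, in roles and versions not stated; the program that made the counts was not given in the sources used here. Young WT samples have titles starting with WO and were grouped by genotype label. The closest replicate pair differed by a chi-square per degree of freedom of 3.67, so each library counted once. The largest value, 41.3, was between aged WT hearts 1 and 5.

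Counts were rounded and tested in edgeR 4.0.16 (R 4.3.3) with filterByExpr, TMM and the quasi-likelihood F test, with 4 groups in 1 fit (12 residual degrees of freedom) and Benjamini-Hochberg adjustment over 13373 genes. Genes with an adjusted p under 0.05 are said to have changed. CPM use TMM-scaled library sizes. Alternatives used DESeq2 1.42.0 and limma 3.58.1 on log2(FPKM + 1) or log2(FPKM + 0.1), with and without a mean of at least 0.5 FPKM. The FPKM values were not rescaled by TMM. The TMM factors were 0.934 to 1.01 in young and 0.985 to 1.04 in aged WT hearts.

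The 36 genes, their roles and the other lists were chosen with earlier results of these data known. Named are genes that passed in any comparison (values per heart), the 3 lowest p where none passed, all ATG8 and receptor genes (as group means where they did not pass), and up to 6 further pathway genes per comparison in order of adjusted p; genes without overlap, Becn1, Atg13, Ulk2 and Wipi1 among them, were added after values were seen. Intervals are 95% from the fit.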

Additional observations from a re-analysis of the deposited data

Results flagged for a closer look

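Each of the 36 genes was checked in each group of 4 hearts for a heart far from the other 3, 144 checks in all; a heart was taken as far where its gap to the nearest other exceeded Dixon's 95% critical value as a share of the group's range. Chance gives about 1 in 20 such results, and 6 were found. Young WT heart 29 was the lowest of its group for Atg13, at 62.4 CPM against 74.3 to 75.7 CPM, and for Atg2b, a lipid transfer protein gene, at 34.8 CPM against 41.4 to 42.4 CPM. Young WT heart 39 was the lowest for Gabarapl1, at 89.6 CPM against 97.1 to 97.4 CPM. Young WT heart 42 was the lowest for Fundc1, at 35.5 CPM against 43.9 to 45.4 CPM. Aged WT heart 1 was the highest for Gabarapl2, at 110 CPM against 97.4 to 99.5 CPM. Young KO heart 38 was the highest for Atg14, at 21.2 CPM against 15.8 to 16.4 CPM.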

How the results depend on the processing

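No paired analysis was possible because the groups share no animal numbers. The rises of Bnip3, Gabarapl1 and Optn and the fall of Atg4d in WT ageing, and the rise of Bnip3 in KO ageing, held in the 7 alternatives with all hearts and without each of the 8 hearts in turn; the number of genes called in WT ageing was 4 to 7 in both, with 7 (6 up, 1 down) in the FPKM settings and without aged WT heart 1. Atg4b kept its direction but lost its call with only the WT groups fitted (adjusted p = 0.0736) and in all 3 FPKM settings (0.0978 to 0.103). In KO ageing the count of 1 became 3 with only the KO groups fitted and 2 in log2(FPKM + 1), log2(FPKM + 0.1) and log2(FPKM + 1) without a filter, and stayed at 1 without any single heart. Among aged hearts the count of 1 (Optn) became 0 with only the aged groups fitted and 0 with robust dispersion estimates, an alternative chosen after seeing the data (adjusted p = 0.0537), and was 0 to 1 without single hearts; without aged WT heart 5 the 1 gene called was Bnip3 in place of Optn. The interaction count of 0 became 1 (Optn) in DESeq2 and was 0 to 1 without single hearts. In young hearts the count was 0 in every alternative run. The causes were not tested. No gene called in the count test changed direction. Of genes not called, 4 or 5 of the 36 in WT ageing and 9 in KO ageing had the opposite sign in FPKM settings, among them Map1lc3a and Nbr1 in the former and Atg9a and Map1lc3b in the latter, where the median change of all genes was also higher (0.04 in log2(FPKM + 1) in WT ageing). Leaving out single hearts also reversed signs of genes not called. Without aged WT heart 1, 10 of the 36 did so between KO and WT among aged hearts, and 9 in the interaction. The main log2 estimates of these genes were at most 0.14 in size. The lowest count of any of the 36 genes in a library was 71 (Atg4c), and small differences of such genes are limited by depth.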
